A study of Rattus norvegicus with 3 samples.

Results

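The genes described here are 6 genes of antigen presentation by class I and class I-like molecules, B2m, Tap1, Tap2, Tapbp, Nlrc5 and Cd1d1. They were chosen by name, with earlier results of these data known, and all 6 were among the 34034 genes counted in both droplet libraries. The tissue was the thymus of the inbred Lewis rat at 8 weeks of age. It gave 1 library of CD45-negative stromal cells, depleted of the blood-derived cells that carry CD45 by magnetic and flow sorting after digestion with Liberase TH and DNase I. A second library held thymocytes, the developing T cells of the organ, freed with collagenase D and DNase I. Neither library carries a genetic change or a treatment in its labels, and the number of animals behind each is not given. A spatial section of the same tissue was not used for these genes. With 1 library a group, differences have no check between replicates and carry no p-value, and the 95% intervals cover counting error alone.

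Nearly all cells display short peptides on class I molecules, which consist of a heavy chain and the shared light chain beta-2 microglobulin, encoded by B2m. The transporter made of the Tap1 and Tap2 proteins carries peptides from the cytosol into the endoplasmic reticulum, where tapasin, encoded by Tapbp, holds the empty class I molecule beside it. Nlrc5 encodes the transactivator that works at class I promoters, and Cd1d1 encodes a class I-like molecule that shows lipids to natural killer T cells. In the thymus, cortical epithelium shows peptides to double-positive (DP) thymocytes, which carry both CD4 and CD8 before selection, and medullary epithelium tests the single-positive (SP) cells that follow. Natural killer T cells are an exception, since DP thymocytes themselves present lipids on CD1d to them.

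The promoters are shown because they let the reader compare the sequence in front of genes whose levels are set side by side below. RefSeq's table for build GRCr8 held a window of 250 bases before and 50 bases after the start for 5 of the 6 genes, and only the bases before the start are printed. They lie at chr3:129549080-129549329 (plus strand) for B2m, chr20:4668544-4668793 (minus strand) for Tap1, chr20:4652297-4652546 (minus strand) for Tap2, chr20:4967878-4968127 (minus strand) for Tapbp and chr2:174725030-174725279 (minus strand) for Cd1d1. Capitals mark matches on either strand to an interferon response element, searched as GAAA, any 2 bases and GAAA, or to a kappaB-type site, searched as GGGA, any base and TTTCC. The motifs were chosen after the sequences had been read.
B2m: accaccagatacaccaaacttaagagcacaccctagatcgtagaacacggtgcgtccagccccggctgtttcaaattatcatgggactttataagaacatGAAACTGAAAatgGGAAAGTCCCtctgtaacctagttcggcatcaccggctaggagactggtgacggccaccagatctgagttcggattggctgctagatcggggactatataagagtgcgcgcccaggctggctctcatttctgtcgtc
Tap1: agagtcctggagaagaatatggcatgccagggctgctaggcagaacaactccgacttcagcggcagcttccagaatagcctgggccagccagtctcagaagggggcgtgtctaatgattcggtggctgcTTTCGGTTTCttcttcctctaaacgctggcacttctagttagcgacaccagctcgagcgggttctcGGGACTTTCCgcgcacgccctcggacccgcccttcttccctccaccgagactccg
Tap2: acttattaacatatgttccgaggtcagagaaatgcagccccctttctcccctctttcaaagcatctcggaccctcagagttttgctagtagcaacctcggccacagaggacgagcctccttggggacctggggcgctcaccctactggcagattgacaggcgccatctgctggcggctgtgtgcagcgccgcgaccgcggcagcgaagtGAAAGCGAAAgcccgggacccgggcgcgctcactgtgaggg
Tapbp: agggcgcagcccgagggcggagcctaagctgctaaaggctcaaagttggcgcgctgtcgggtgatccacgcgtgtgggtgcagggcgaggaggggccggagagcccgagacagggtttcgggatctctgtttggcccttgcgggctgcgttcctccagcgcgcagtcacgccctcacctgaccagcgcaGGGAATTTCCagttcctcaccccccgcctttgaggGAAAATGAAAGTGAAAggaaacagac
Cd1d1: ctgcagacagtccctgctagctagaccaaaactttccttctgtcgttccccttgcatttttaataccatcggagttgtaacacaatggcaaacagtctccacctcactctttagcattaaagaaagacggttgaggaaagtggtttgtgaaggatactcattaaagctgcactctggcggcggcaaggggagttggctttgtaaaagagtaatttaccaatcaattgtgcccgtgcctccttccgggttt

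The interferon response element was found in 4 of the 5 windows, those of B2m, Tap1, Tap2 and Tapbp, and in 3.92% of all 33469 promoter windows of the same length. The Tapbp window held 2 matches, which overlap. The kappaB-type site was found in 3 of the 5, those of B2m, Tap1 and Tapbp, and in 0.362% of all windows. ATTGG, the core of the Y box at class I promoters, was found in the B2m and Cd1d1 windows and in 37.5% of all windows. A match is a description of these letters and not a bound site. In RefSeq's gene order, RT1-DOb, Tap2, Psmb8, Tap1 and Psmb9 follow each other on chromosome 20, with Tap1 and Psmb9 next to each other on opposite strands.

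**Figure D1:**
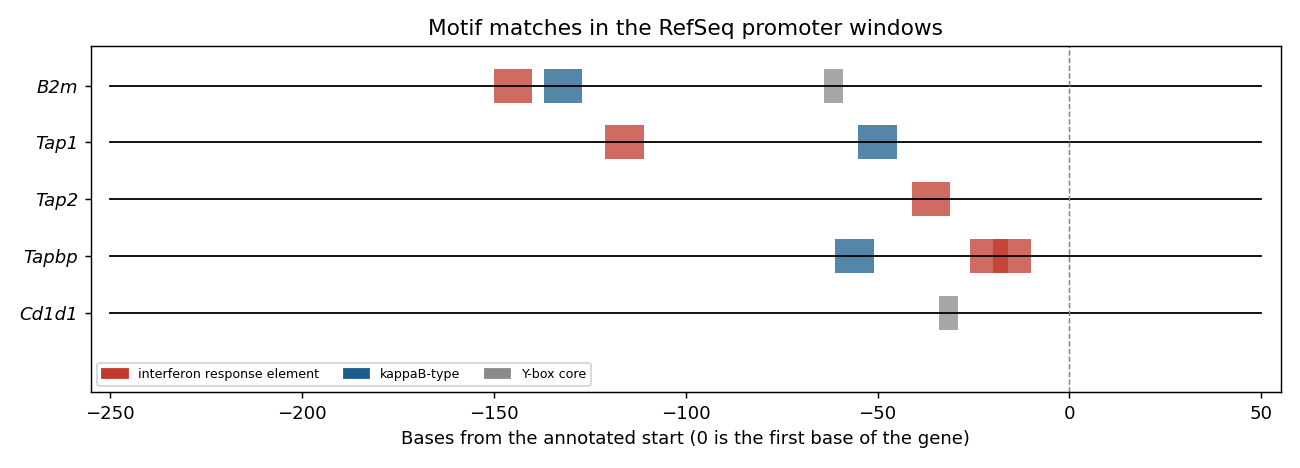
Matches to 3 motifs in the promoter windows of 5 genes, by distance in bases from the annotated start (dashed line). The interferon response element was matched in B2m, Tap1, Tap2 and Tapbp, the kappaB-type site in B2m, Tap1 and Tapbp, and neither in Cd1d1.

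The stromal library held 13226 annotated cells of 16160 barcodes, with a median of 9087.5 unique molecular identifiers (UMIs, each standing for 1 captured RNA molecule) per cell. The thymocyte library held 8546 annotated cells of 8574 barcodes, with a median of 3994.0 UMIs, and 28 annotated barcodes occurred in both. Levels are UMIs summed over the cells of a label and given per 1000000 UMIs of that label (CPM), so they are shares of RNA. Labels are the authors', and the 24 stromal and 21 thymocyte labels of at least 20 cells were ordered. All 6 genes passed the level minimum of 10 CPM over their library, as did 10023 genes in the stroma and 8308 in the thymocytes. A gene is called higher or lower where the ratio of CPM is past 2-fold.

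Several labels were mixed by their markers. In the stromal library, fibroblast markers (Pdgfra, Col1a1, Col3a1, Dcn and Lum, summed) stood at 29264 CPM in aaTEC2, 14101 in MEC, 11987 in the cells labelled Thymocyte and 7570 in those labelled B cell. They stood at 7170 to 46331 CPM in the fibroblast and mural labels, and at 295 in mTEC-prol. Cells of the initial clusters TEC-c and Endo-2 carried 11252 to 18656 CPM of these markers inside epithelial and endothelial labels, so results there are also given without them. Of 390 cells labelled DN, 151 came from the initial cluster DP-P2 and 36 from DP-P3, and the label held 702 CPM of Cd8a, against 1497 in DP. Of 128 cells labelled gdT, 111 came from the initial cluster DN. The part of such mixing in the levels was not tested except where a value without those cells is given.

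Across thymocyte stages the 6 genes fell into different patterns. In the 4 mature SP labels pooled, 366 cells against 5202 DP cells, 3 of the 6 were past 2-fold higher (B2m, Tapbp and Nlrc5) and 1 was past 2-fold lower (Tap2). Over all genes of at least 10 CPM, 9.06% were past 2-fold higher and 15.9% lower in the same comparison. The median of those genes stood at -0.29 on the log2 scale, and with that shift removed the split of all calls moved from 36.3% to 55.6% higher. The median log2 ratio of the 6 genes was 1.67.

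**Figure D2:**
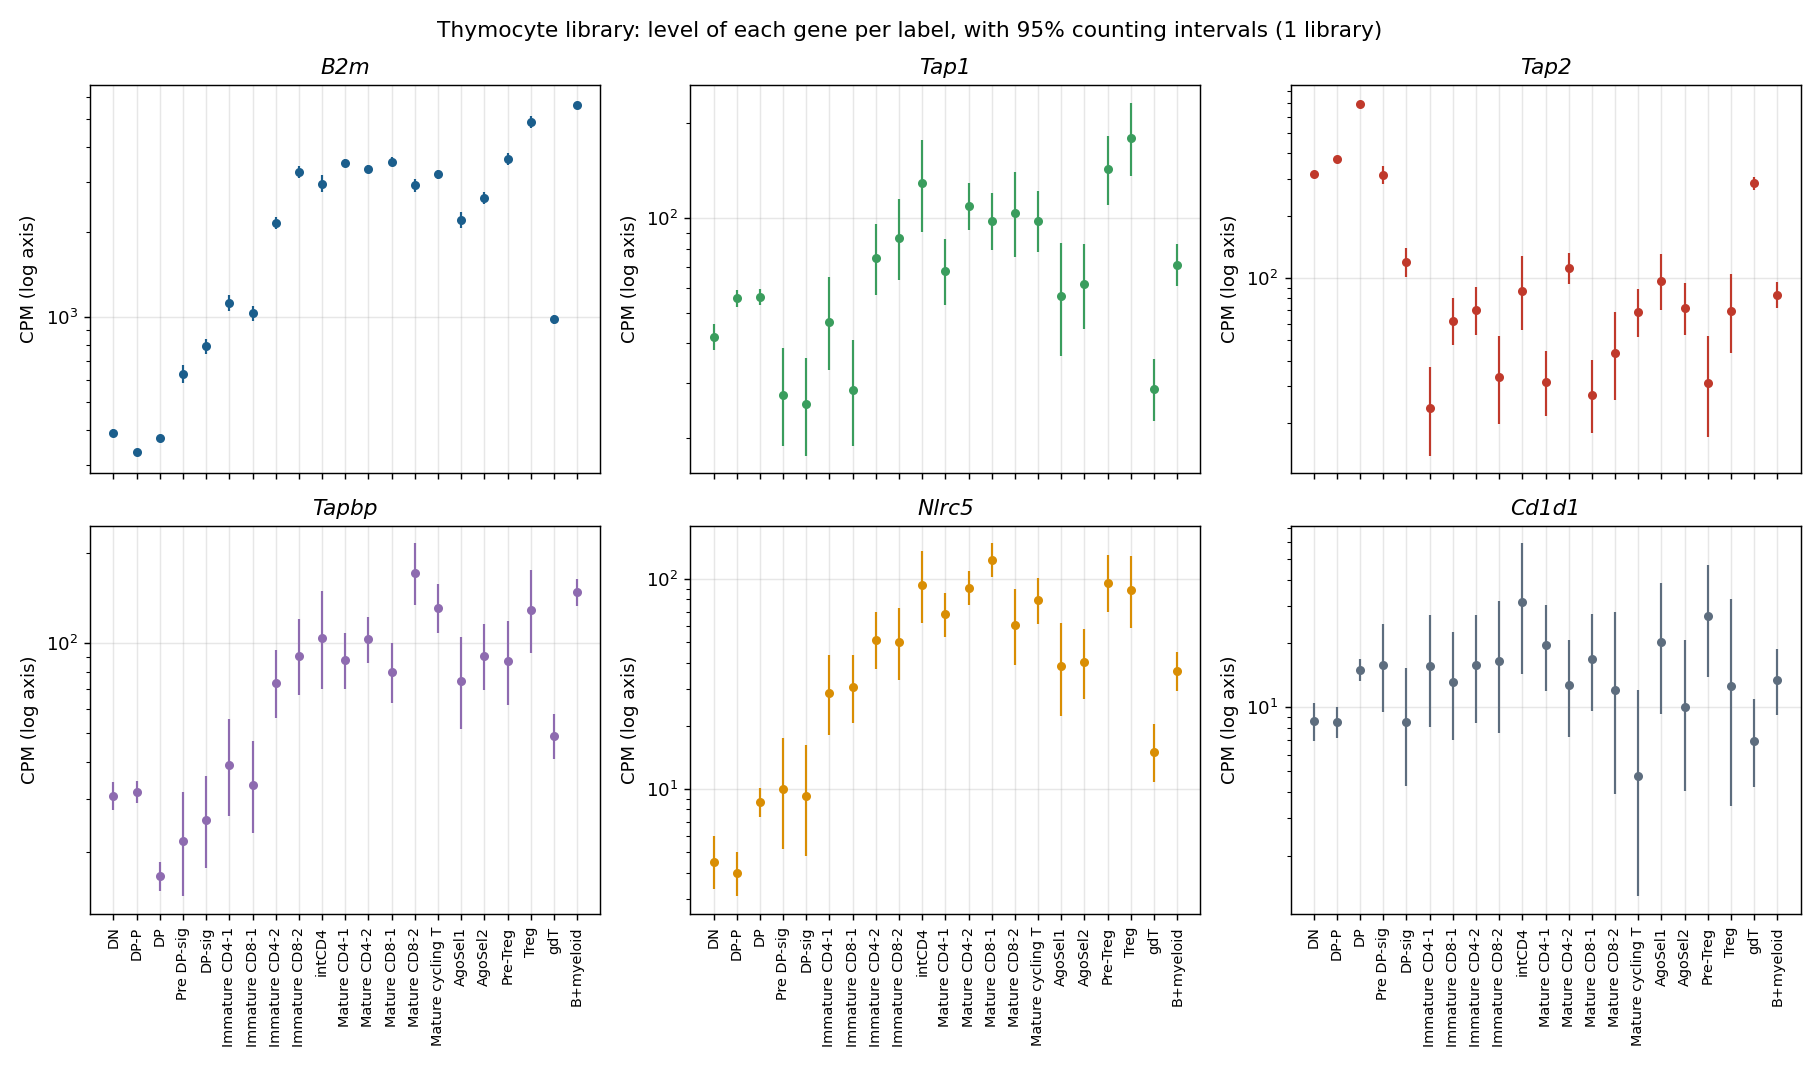
Level of each gene (CPM, log axis, a separate scale for each gene) in the 21 thymocyte labels of at least 20 cells of 1 library. Points are summed UMIs per label and bars 95% counting intervals; B2m was 375 CPM in DP and 2919 to 3544 in the mature labels, while Tap2 was highest in DP at 690.

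B2m, the light chain of every class I molecule, stood at 391 CPM in DN (named for double-negative cells, but mixed as given above), 333 in DP-P and 375 (interval 366 to 383) in DP. As shares of RNA these were the 3 lowest of the 21 labels. It stood at 630 CPM in Pre DP-sig, 788 in DP-sig, 1034 in Immature CD8-1 and 1125 in Immature CD4-1. The level therefore stepped up before the immature SP labels, and the counting intervals of Pre DP-sig (586 to 676) and DP-sig (740 to 838) did not overlap with that of DP. It reached 2150 CPM in Immature CD4-2, 3259 in Immature CD8-2 and 2919 to 3544 in the 4 mature labels. Mature CD8-1, Mature CD4-1 and Pre-Treg (3618) could not be told apart by their counting intervals as neighbours in the order. Treg stood at 4886 CPM, and B+myeloid, which are not thymocytes, was the highest at 5634.

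Mature SP cells held 9.06 times the B2m level of DP cells (interval 8.80 to 9.33; 12321 and 7085 UMIs). On the scale of UMIs per cell the ratio was 24.7. On that scale DN held 10.9 B2m UMIs and DP-P 6.72, against 1.36 in DP and 11.0 in the immature SP labels. Nlrc5 and Tapbp UMIs per cell were likewise higher in DN and DP-P than in DP. The median total was 3205.5 UMIs in a DP cell and 7964.0 in a Mature CD4-1 cell. The median DP cell gave 1 B2m UMI and the median Mature CD4-1 cell 30.0. Between immature SP and DP the ratio of CPM was 4.64, and between DP-sig and DP 2.10.

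Inside some labels B2m differed between the initial clusters of the cells. AgoSel1 cells placed in the cluster Early SP held 1015 CPM of B2m, and those placed in Mature SP 3169. Immature CD4-1 cells split in the same way, at 877 CPM in Early SP and 1639 in Mature SP. Among cells labelled DP, the 78 in Early SP stood at 551 CPM, against 384 in DP1 and 339 in DP2. Immature CD4-2 cells stood at 1523 CPM in Early SP (20 cells) and 2264 in Mature SP. Pre DP-sig cells stood at 687 CPM in DP1 and 637 in Early SP, and at 312 in DP2 (33 cells, 31 UMIs). DN cells were closer together, at 388 CPM in the cluster DN, 362 in DP-P2 and 377 in DP-P3.

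Nlrc5, the class I transactivator, was at 3.98 CPM in DP-P, 4.52 in DN and 8.67 in DP, the 3 lowest labels. Pre DP-sig stood at 10.0 CPM and DP-sig at 9.31, within the counting error of DP. It stood at 28.7 CPM in Immature CD4-1, 30.5 in Immature CD8-1, 49.9 in Immature CD8-2 and 51.5 in Immature CD4-2. By label, B2m was already past 2-fold higher in DP-sig, and Nlrc5 first in the immature SP labels. Pre DP-sig and DP-sig rest on 12 Nlrc5 UMIs each, with intervals of the ratio to DP up to 2.07 and 1.93. Within the DP label, the 78 cells in Early SP stood at 29.4 CPM (16 UMIs, interval 16.8 to 47.7), against 8.62 in DP1. The order in which B2m and Nlrc5 rose is therefore not settled by these counts. In the mature labels Nlrc5 ranged from 60.4 CPM in Mature CD8-2 to 123 in Mature CD8-1, the highest of all 21. The mature SP to DP ratio was 10.3 (interval 8.53 to 12.5; 325 and 164 UMIs).

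Tapbp, which encodes tapasin, was lowest in DP at 16.6 CPM (interval 14.8 to 18.5). DN and DP-P stood at 30.8 and 31.7 CPM, about the level of Immature CD8-1 at 33.5. The low point of the gene thus lay in DP and Pre DP-sig (21.7), neighbours that could not be told apart. It stood at 73.5 CPM in Immature CD4-2, 90.5 in Immature CD8-2 and 80.2 to 172 in the mature labels, of which Mature CD8-2 (27 cells) was the highest label, not told apart from B+myeloid at 148. The mature SP to DP ratio was 6.05 (interval 5.19 to 7.06).

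Tap1, the first subunit of the peptide transporter, was 56.1 CPM in DP and 55.6 in DP-P. It was 27.5 CPM in Pre DP-sig and 25.6 in DP-sig, with gdT at 28.7. The immature SP labels stood at 28.5 (Immature CD8-1), 46.9 (Immature CD4-1), 74.8 (Immature CD4-2) and 86.8 CPM (Immature CD8-2), and pooled at 0.986 of DP (interval 0.834 to 1.16). Pre DP-sig and DP-sig stood at 0.490 and 0.456 of the DP level. Mature labels ranged from 67.9 to 109 CPM, Pre-Treg stood at 143 and Treg was the highest at 180. The mature SP to DP ratio was 1.68 (interval 1.48 to 1.90), and it was 2.05 under median-of-ratios scaling, past the 2-fold line.

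Tap2, the partner subunit, was also lower in Pre DP-sig and DP-sig than in DP, but stayed low in the SP labels. DP was the highest of 21 labels at 690 CPM (interval 678 to 702; 13044 UMIs). DP-P followed at 375 CPM, DN at 316, Pre DP-sig at 314 and gdT at 286, of which the last 3 could not be told apart as neighbours. DP-sig stood at 120 CPM. Mature SP cells stood at 59.5 CPM, 11.6-fold lower than DP (interval 10.1 to 13.3; 216 UMIs), and the lowest label was Immature CD4-1 at 23.5. By these counts the 2 genes of the transporter differed in direction between these cells, Tap1 at 1.68 and Tap2 at 0.0862 of the DP level. The Tap2 counts may depend on where the annotation ends the gene. The reads were not examined, so this was not tested.

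Tap2 was lower in Pre DP-sig and DP-sig, the labels between DP and immature SP, and lower again in immature SP. Against DP, Pre DP-sig stood at 0.455 (interval 0.410 to 0.505), DP-sig at 0.173 (0.147 to 0.203) and the immature SP labels pooled at 0.0718 (0.0609 to 0.0842). Within Pre DP-sig, cells placed in the cluster DP1 stood at 413 CPM and those in Early SP at 217. Within DP-P, cells placed in the cluster DN stood at 272 CPM, those in DP-P1 at 412 and those in DP-P3 at 727, which is near the level of DP cells in DP2 at 729. On the scale of UMIs per cell the order was different. DN cells held 8.77 Tap2 UMIs, DP-P cells 7.56, DP cells 2.51 and Mature CD4-1 cells 0.264, with a median total of 23190.0 UMIs in DN and 3205.5 in DP.

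Rag1, which encodes a recombinase of DP cells, was highest among the 4 mature labels in Mature CD4-2, as was Tap2. The values of both genes are given side by side. Rag1 was 1952 CPM in DP, 199 in Mature CD4-2 and 10.8 to 21.1 in the other 3 mature labels, while Tap2 was 112 in Mature CD4-2 and 27.4 to 43.5 in those 3. In the 321 of 366 mature SP cells without a Rag1 UMI, the Tap2 ratio to DP was 0.0439, a larger difference than with all cells, and the B2m ratio was 9.39. In Mature CD4-2 cells without a Rag1 UMI, Tap2 stood at 40.2 CPM. DP cells without a Rag1 UMI stood at 531 CPM of Tap2, and DP-sig cells without one at 110.

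The genes beside Tap2 on the chromosome are given for comparison, and a link between their levels and that of Tap2 was not tested. RT1-DOb, the next gene on the same strand, stood at 0.476 CPM in DP. Psmb8, the neighbour on the other side, stood at 220 CPM in DP and its mature SP to DP ratio was 0.901. It was lower than in DP in Pre DP-sig (140 CPM), DP-sig (114) and Immature CD4-1 (91.2), and higher in DN (391) and DP-P (396). Psmb9, the neighbour of Tap1, had a ratio of 2.91. RT1-DOb rests on 9 UMIs in DP.

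Cd1d1, which presents lipids, was 15.0 CPM in DP (interval 13.3 to 16.9) and 15.7 in mature SP cells, a ratio of 1.05 (0.772 to 1.39). DN and DP-P stood at 8.59 and 8.54 CPM, with ratios to DP of 0.572 and 0.568. Labels ranged from 4.73 CPM in Mature cycling T to 31.3 in intCD4, and no pair of neighbours in the order could be told apart by counting error. In NKT, a label of 18 cells and thus not ordered, 0 of 177240 UMIs were Cd1d1, which allows up to 16.9 CPM at 3 UMIs.

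**Figure D3:**
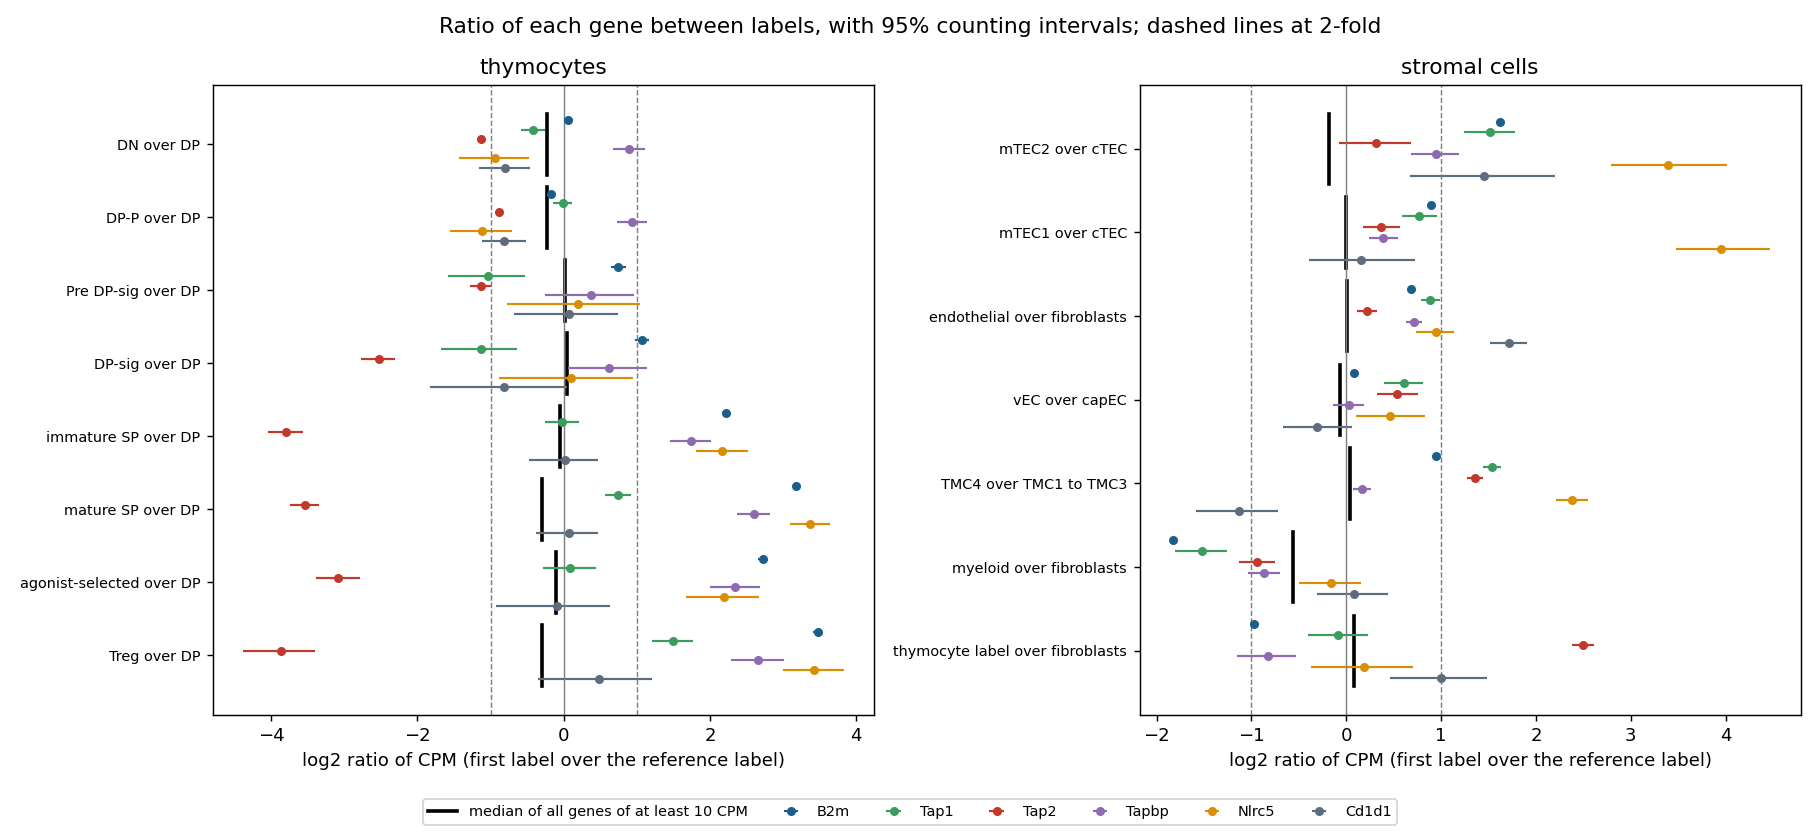
Log2 ratio of CPM of each gene in 15 comparisons between labels, with 95% counting intervals; the black bar is the median of all genes of at least 10 CPM and dashed lines mark 2-fold. Tap2 lies furthest to the left in the comparisons of DP-sig, SP, agonist-selected and Treg labels with DP, where B2m lies to the right.

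The other stages were compared with DP in the same way. In the immature SP labels 3 of 6 genes were past 2-fold higher (B2m, Tapbp, Nlrc5) and 1 lower (Tap2), against 9.20% and 11.1% of all genes. By initial cluster, with Early SP in place of these labels, B2m stood at 2.25, Nlrc5 at 2.54, Tapbp at 1.80 and Tap2 at 0.221. Early SP is a different set of cells, since it also held 284 cells labelled DP-sig, 146 Pre DP-sig and 78 DP. In turn, 83 Immature CD4-2 and 51 Immature CD8-2 cells lay in the cluster Mature SP. In DP-sig 1 was higher (B2m) and 2 were lower (Tap1, Tap2), against 9.14% and 8.38%. In Pre DP-sig none was higher and 2 were lower (Tap1, Tap2), against 4.90% and 4.32%. Tap1 rests on 33 UMIs in each of these labels, and its ratio in Pre DP-sig was past the line by little, at 0.504 to 0.580 under 4 alternatives. In DN none was higher and Tap2 was lower at 0.458, against 18.1% and 24.5%, and in DP-P none was higher and Nlrc5 was lower at 0.459, against 14.6% and 18.6%. Both counts for DN and DP-P moved with the setting, as did the split of all calls, from 42.6% to 55.4% higher in DN and from 44.0% to 59.6% in DP-P under median-of-ratios scaling.

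The AgoSel and Treg labels, taken with Pre-Treg, came last. In AgoSel1 and AgoSel2 pooled, B2m stood at 6.59, Tapbp at 5.07 and Nlrc5 at 4.55 times the DP level and Tap2 at 0.118, so that 3 genes were higher and 1 was lower, against 13.0% and 15.5% of all genes. In Pre-Treg and Treg pooled, B2m stood at 11.1, Nlrc5 at 10.7, Tapbp at 6.31 and Tap1 at 2.82 times the DP level and Tap2 at 0.0683. That made 4 higher and 1 lower, against 9.74% and 18.2%. Tap1 there was 1.64, within 2-fold, among cells of at most 3% mitochondrial UMIs, and median-of-ratios scaling moved the split of all calls from 34.9% to 53.3% higher. All comparisons with DP share the DP cells, so their values are not independent of each other.

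Heavy chains, the partners of beta-2 microglobulin, are encoded by the RT1 genes of the rat. Reads of near-identical copies are hard to assign, and the reference genome may carry another RT1 haplotype than the Lewis strain. Counts for RT1 genes, single or summed, are therefore uncertain. Summed over 25 RT1 names, heavy chains stood at 2324 CPM in DP, 718 in Pre DP-sig, 395 in DP-sig and 1786 in mature SP cells. The names pool RT1-A and RT1-CE genes with RT1-N, RT1-S, RT1-T24, RT1-M and RT1-O genes, so the sum is not the level of 1 kind of heavy chain. This sum fell by 2.56 on the log2 scale from DP to DP-sig, where B2m was 1.07 higher. In DP-sig against DP, 1 of 18 tested genes of the heavy-chain list was past 2-fold higher and 11 were lower, against 9.14% and 8.38% of all genes. Of 18 tested genes of the heavy-chain list, 8 were past 2-fold higher in mature SP than in DP and 7 lower, against 9.06% and 15.9% of all genes. RT1-A1 stood at 127 and 10.9 CPM (ratio 11.7), RT1-A3 at 229 and 22.9 (9.99) and RT1-CE16 at 265 and 30.1 (8.81), mature SP first. RT1-O1 stood at 1.10 and 31.6 CPM (0.0349), RT1-N3 at 21.8 and 177 (0.123) and RT1-N2 at 29.2 and 224 (0.131). The list's median was 0.13 on the log2 scale, against -0.29 for all genes.

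The other lists of the pathway are given for the same comparison, in which 9.06% of all genes were higher and 15.9% lower. Of 5 inducible proteasome genes, which encode subunits that shape peptides for class I, 4 were higher in mature SP cells: Psme2 at 3.75, Psme1 at 3.16, Psmb9 at 2.91 and Psmb10 at 2.54 times DP. None of 6 constitutive proteasome genes and none of 9 genes of loading and folding was past 2-fold, with Calr, a chaperone of the peptide-loading complex, at 1.34. Of 17 regulators, 4 were higher, among them Nfkb1 at 5.97, Irf1 at 3.82 and Irf8 at 2.03, whose interval of 0.715 to 5.08 includes 1, and 2 were lower, with Ifnar2 at 0.261 and Nfyc at 0.426. Of 5 genes of lipid presentation and NKT selection, 4 were lower: the protease gene Ctsl at 0.147, the signalling receptor gene Slamf1 at 0.241, the lipid-loading gene Psap at 0.274 and the adaptor gene Sh2d1a at 0.415. Cd8a and Cd8b, which encode the class I coreceptor, stood at 0.204 and 0.111.

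In the stroma, the highest level was the largest multiple of the lowest for Nlrc5, 124 against 5.70 CPM over 24 labels. Its level was 124 CPM in mTEC-prol, 115 in mTEC1, 114 in mimetic(tuft), 80.6 in mimetic(muscle), 77.7 in mTEC2 and 56.0 in mimetic(goblet), and 7.42 in cTEC, the cortical label. The lowest labels were TMC1 at 5.70 CPM, capFb at 5.75 and TMC2 at 6.67. TMC4 stood apart from these fibroblast-marker labels at 54.0 CPM (interval 49.8 to 58.4), with TMC3 at 25.9.

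**Figure D4:**
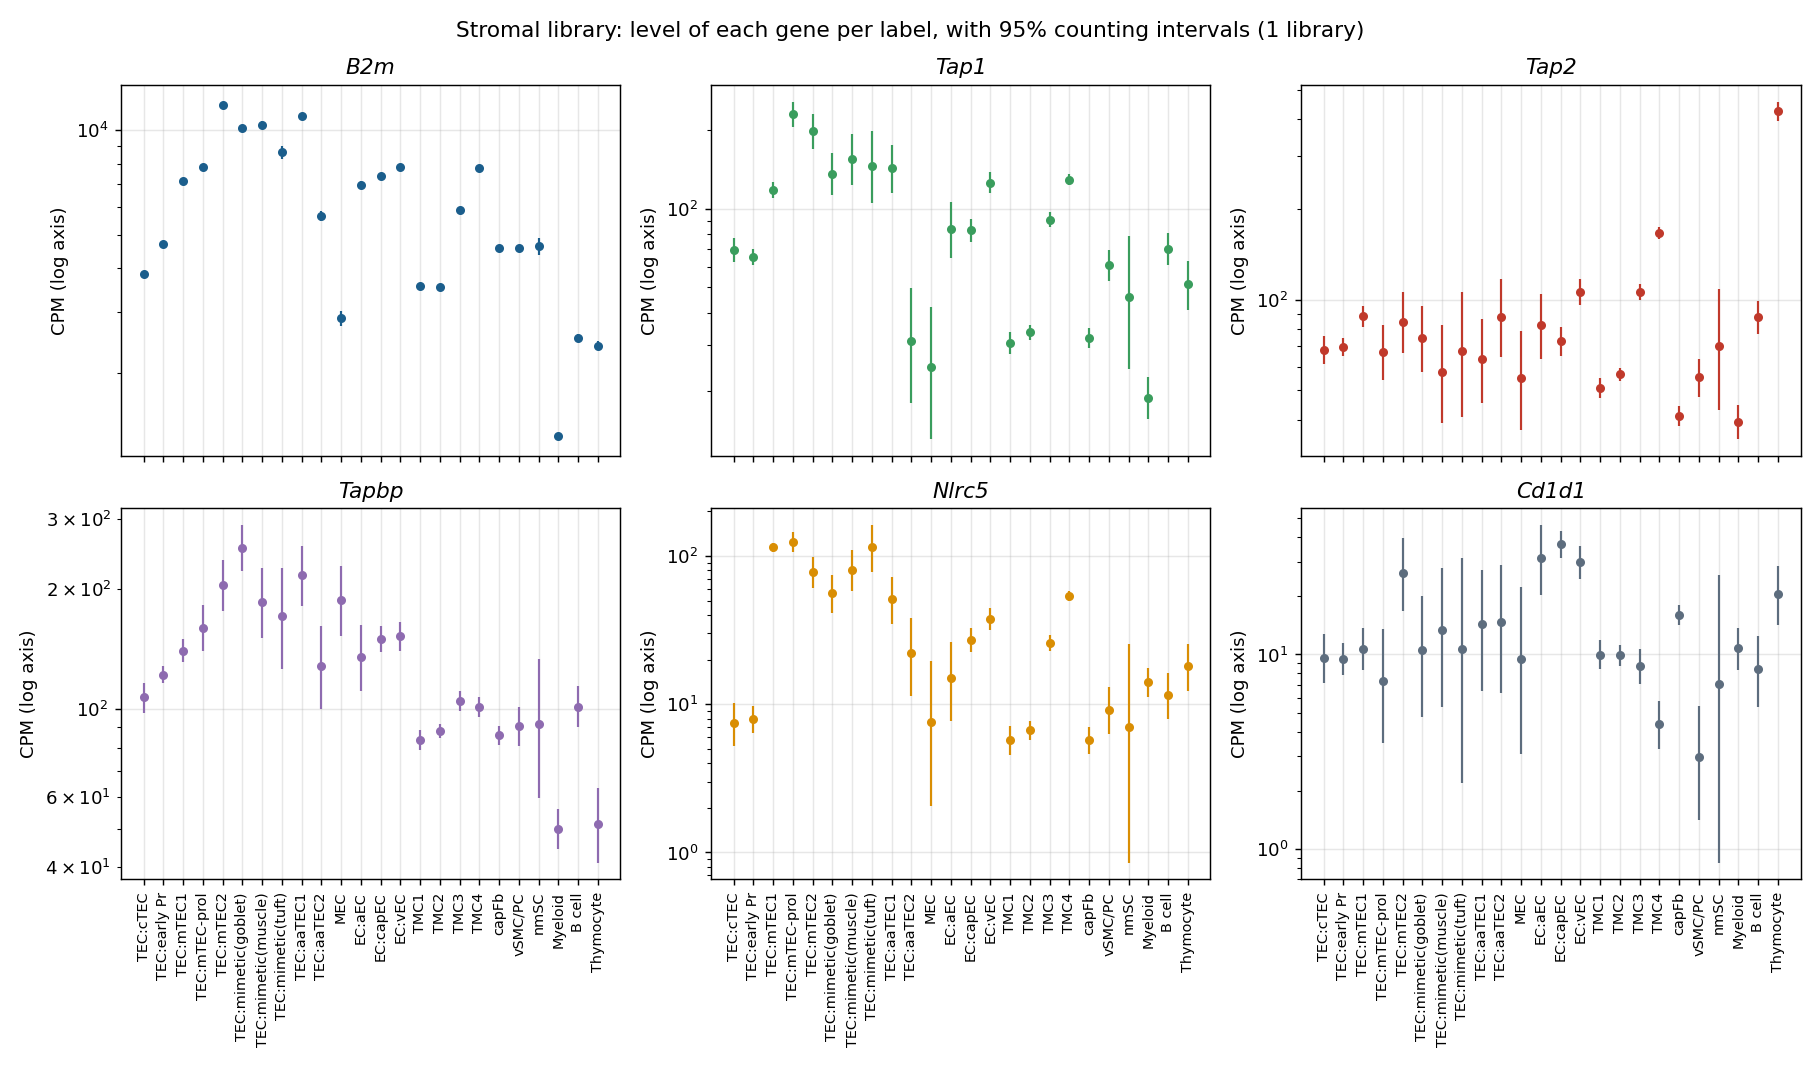
Level of each gene (CPM, log axis, a separate scale for each gene) in the 24 stromal labels of at least 20 cells of 1 library, with 95% counting intervals. Nlrc5 stands at 77.7 to 124 CPM in mTEC1, mTEC-prol and mTEC2 and at 7.42 in cTEC; Tap2 is highest in the cells labelled Thymocyte.

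In mTEC2 against cTEC, 61 and 448 cells, 4 of 6 genes were past 2-fold higher and none lower, against 13.0% and 18.0% of all genes. Nlrc5 stood at 10.5 times the cTEC level (interval 6.92 to 16.1; 68 and 37 UMIs), B2m at 3.07 (10336 and 19165 UMIs), Tap1 at 2.86 (2.37 to 3.44) and Cd1d1 at 2.73 (1.59 to 4.58; 23 and 48 UMIs). The 23 Cd1d1 UMIs came from 8 of the 61 mTEC2 cells, and the 48 from 46 cTEC cells, so a few cells carry this ratio. Tapbp was just inside the line at 1.92 (1.61 to 2.28), and Tap2 was 1.24 (0.951 to 1.60). By summed UMIs, B2m was highest in mTEC2 at 11809 CPM, followed by aaTEC1 at 10953, mimetic(muscle) at 10339 and mimetic(goblet) at 10140. By the median cell, mTEC2 stood lower than those 3 labels, at 9098 CPM of B2m against 10109, 10021 and 10247. The count stayed at 4 without the cluster TEC-c, Cd1d1 fell within 2-fold as the mean of the cells' CPM (1.84), and Tap2 was 0.762 to 2.00 over the alternatives. The median of all genes was -0.18 on the log2 scale.

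Summed heavy chains were higher in mTEC2, at 5115 CPM against 1702 in cTEC, and 13 of 17 tested genes of that list were past 2-fold higher, against 13.0% of all genes, among them RT1-N3 at 5.08, RT1-CE4 at 3.99 and RT1-A3 at 3.91. Fcgrt, a class I-like receptor for antibodies, was the 1 lower, at 0.218. Of 9 loading and folding genes 3 were higher, Calr at 3.45, Hspa5 at 3.33 and Sec61b at 2.34. Of 5 inducible proteasome genes only Psme2 was past 2-fold, at 2.16, and Psmb9 was 542 and 448 CPM. Among 18 regulators Ifngr2 (4.97) and Irf2 (3.08) were higher and Nfyb (0.297), Rfxap (0.407) and Nfkb1 (0.417) lower. Ctsl, the cathepsin gene that marks cortical epithelium, was 128 and 2353 CPM.

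In mTEC1 against cTEC, 1 of 6 genes was past 2-fold higher, Nlrc5 at 15.5 (interval 11.1 to 22.2; 739 and 37 UMIs), and none was lower, against 5.96% and 3.47% of all genes. B2m stood at 1.86, Tap1 at 1.70, Tapbp at 1.31 and Tap2 at 1.29. The mTEC1 label was not uniform. Its 232 cells of the cluster TEC-d held 189 CPM of Nlrc5, 149 of Tap1 and 8484 of B2m, and its 176 cells of the cluster TEC-b held 10.3, 73.1 and 5127. Ccl21, a chemokine of the medulla, was 18776 CPM in those TEC-d cells and 1532 in those TEC-b cells, while the cortical list (Prss16, Psmb11, Ccl25, Ctsl) summed to 220 and 1689. Tap2 differed little between them, at 94.2 and 69.3 CPM.

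The cTEC label also differed between clusters, in other genes. Its 72 cells of the cluster TEC-a stood at 2056 CPM of B2m, 13.6 of Tap1 and 10.2 of Tap2, and its 311 cells of TEC-b at 4088, 81.5 and 75.6, while Nlrc5 was 5.11 and 6.18 CPM. Epithelial markers summed to 2403 CPM in those TEC-a cells and 6364 in TEC-b cells, with the cortical list at 3594 and 3252. The early Pr label, 1018 cells, stood near cTEC with 4699 CPM of B2m, 65.5 of Tap1, 69.9 of Tap2 and 7.91 of Nlrc5. Among the epithelial labels Tapbp was highest in mimetic(goblet) at 254 CPM, with aaTEC1 at 217 and mTEC2 at 205 not told apart from their neighbours.

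Among the TMC labels, TMC4 held more Nlrc5, Tap1 and Tap2. Against TMC1 to TMC3 pooled, 3 of 6 genes were past 2-fold higher and 1 was lower, against 7.96% and 8.44% of all genes. Nlrc5 stood at 5.21 (interval 4.63 to 5.85), Tap1 at 2.90 (2.71 to 3.09) and Tap2 at 2.56 (2.42 to 2.71). B2m at 1.93, summed heavy chains at 1.86 and Tapbp at 1.12 were within 2-fold, and 1 of 9 loading and folding genes was past it. Cd1d1 went the other way at 0.455 (0.334 to 0.608; 51 and 497 UMIs), but in cells thinned to 1000 UMIs it was no longer past 2-fold. Tap1 and Tap2 moved together here, with 129 and 167 CPM in TMC4, 90.9 and 106 in TMC3, 33.6 and 56.5 in TMC2 and 30.6 and 50.9 in TMC1. Of 18 regulators, 2 were past 2-fold higher, among them Irf8 (3.97), which was chosen for naming after its value was seen. Fibroblast markers were lower in TMC4, at 8101 CPM against 19406 to 43879 in TMC1 to TMC3, and their part in these ratios was not tested.

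The 3 highest stromal levels of Cd1d1 were 36.9 CPM in capEC, 31.2 in aEC and 29.9 in vEC, the endothelial labels. Neighbours in this order could not be told apart, mTEC2 at 26.3 CPM (interval 16.7 to 39.4) included. The lowest were vSMC/PC at 2.97 CPM and TMC4 at 4.41. Against the pooled fibroblast labels, Cd1d1 stood at 3.28 (interval 2.86 to 3.75) in endothelial cells and was the 1 gene past 2-fold higher, with none lower, against 11.5% and 15.0% of all genes. Nlrc5 was 1.92, Tap1 1.85, Tapbp 1.64, B2m 1.60 and Tap2 1.16, and summed heavy chains were 2.70. Without the cluster Endo-2, Nlrc5 stood at 2.21 and Tap1 at 2.01, so that 3 genes were past 2-fold. Endo-2 cells held less Cd1d1 than Endo-1 cells of the same label, 23.1 against 40.6 CPM in capEC and 15.0 against 33.2 in vEC.

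Between vEC and capEC all 6 genes were within 2-fold, so that 0 were called against 3.52% higher and 5.19% lower of all genes. Tap1 stood at 1.52 (interval 1.32 to 1.75) and Tap2 at 1.45 (1.25 to 1.69), while B2m was 1.06 and Tapbp 1.02 (0.907 to 1.14). Cd1d1 was 0.810 (0.629 to 1.04).

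Blood-derived cells left in the stromal library were compared with the pooled fibroblasts. In myeloid cells B2m was 1318 CPM, the lowest of the 24 labels, at 0.281 of the fibroblast level, and Tap1 was 18.9 CPM, at 0.348, so that none was higher and 2 were lower, against 10.5% and 37.8% of all genes. The median of all genes in this comparison was -0.56 on the log2 scale, and summed heavy chains stood at 0.298 of the fibroblast level. The number of genes past 2-fold lower there was 1 to 5 over the alternatives, and the split of all calls moved from 21.8% to 42.4% higher under median-of-ratios scaling. The cells labelled Thymocyte held 424 CPM of Tap2 (interval 394 to 456), the highest stromal level and 5.64 times that of fibroblasts. It was 1 of 6 genes past 2-fold higher, with none lower, against 14.5% and 18.8% of all genes. Cd1d1 was at the line, with a ratio of 2.00, and B2m at 0.511, the latter 0.326 in cells thinned to 1000 UMIs. These cells carried Rag1 at 959 CPM and the fibroblast markers given above, and the share of the latter in these levels was not tested.

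**Figure D5:**
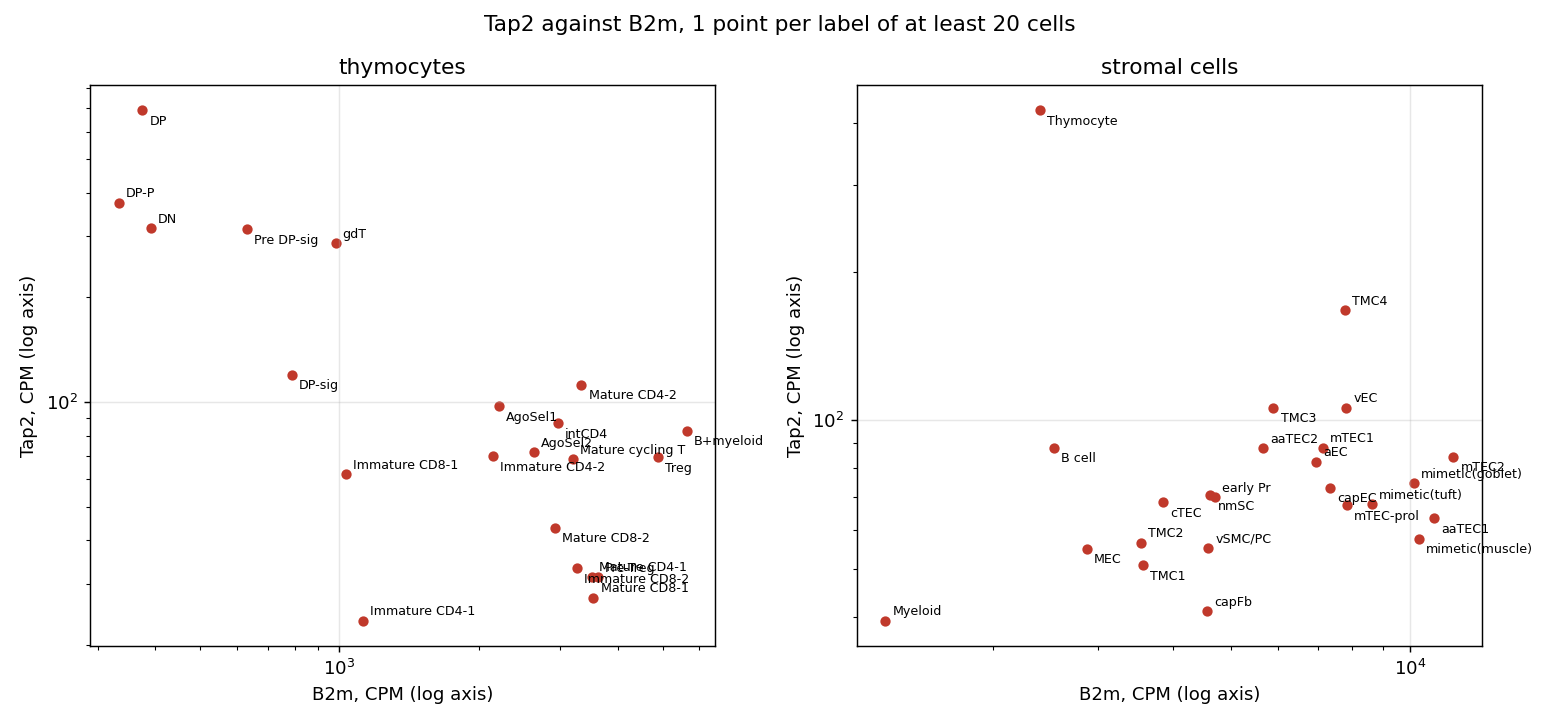
Tap2 level against B2m level (CPM, log axes), 1 point per label of at least 20 cells, in the thymocyte library (left) and the stromal library (right). DP, with 375 CPM of B2m and 690 of Tap2, and the cells labelled Thymocyte in the stroma, with 2397 and 424, lie at the upper left.

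The genes most like each member were found by Pearson's r of log2(CPM + 1) over labels, a description without a p, since labels of a library share cells of 1 preparation and free RNA. Over the 21 thymocyte labels, B2m was most like Ms4a6bl1 (r = 0.97), Tapbp like RT1-CE16 (0.95), Tap1 like Calhm6 (0.86) and Cd1d1 like Lyst (0.76). Serpinb6b and Tnfrsf14 were among the 3 genes most like Nlrc5 (0.95 each). Tap2 was most like Cox7a2 (0.95), with Bfsp2 and Akap2 at 0.94. Among the members themselves, B2m had r = 0.92 with both Nlrc5 and Tapbp, 0.72 with Tap1 and -0.75 with Tap2.

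Over the 24 stromal labels, B2m was most like the heavy-chain genes RT1-CE16 and RT1-A1 (0.94 each), Tapbp like RT1-A1 (0.92), Tap1 like Traf2 (0.90), Tap2 like Pan3 (0.86), Nlrc5 like Zc3h12a (0.83) and Cd1d1 like Arhgef3 (0.80). Tcf7, a transcription factor gene of thymocytes, was among the 3 most like Tap2 in the stroma (0.84). B2m and Tap1 had r = 0.83, and B2m and Tap2 0.05. The cells labelled Thymocyte stood at 424 CPM of Tap2 and 2397 of B2m, with the next highest Tap2 level at 167 in TMC4. Correlations of Tap2 without that label were not computed. Cd1d1 had r = 0.23 with B2m here and 0.32 over the thymocyte labels.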

How the data were processed

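Gene counts of 2 droplet libraries (10x chemistry) and the authors' cell annotation were used, 1 library per group, with the spatial section not used here. The deposited matrices hold raw UMI counts for each gene in each barcode. The submitters' processing notes name Cell Ranger 8.0.0, Seurat 5.3.0 and build mRatBN7.2. The percent of mitochondrial UMIs per cell is the authors' deposited value. Labels are the authors' projected label, or the initial cluster where none was given.

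UMIs were summed per label and given as CPM, with exact Poisson intervals, and compared within a library as ratios of CPM with exact conditional intervals, each at 95%, which cover counting error alone. A count of 0 was bounded at 3 UMIs. The 6 genes and all lists were chosen with earlier results of these data known. Named genes are the 6, the 3 highest and 3 lowest of each pathway list in mature SP over DP and in mTEC2 over cTEC, and the 3 most like each gene, apart from names with only an identifier. One gene that this rule names is not reported here. Alternatives changed the label, cell filters (a floor of 1000 UMIs, a ceiling of 3% mitochondrial UMIs, or the 99th percentile of UMIs), weighting, total, scaling, depth (thinned to 1000 UMIs, seed 7) and cells captured together. Chosen after seeing the data were cells whose initial cluster matched the label, mature cells without a Rag1 UMI, and stroma without TEC-c and Endo-2. No doublet caller was run. The calculation of the ratio and its interval was checked on simulated Poisson counts. These leave out differences between cells of a label, so the check does not show that the intervals cover such differences. Sequences are RefSeq's (GRCr8), read for their letters only. Scripts ran in Python 3.11.15 with pandas 2.3.3, SciPy 1.17.1 and NumPy 2.4.6, and figures were drawn with matplotlib 3.10.9.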

Additional observations from a re-analysis of the deposited data

Results flagged for a closer look

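The stromal library also held 2934 barcodes without an annotation, which entered no comparison, and all 6 genes were detected in them above the limit of 0.346 CPM that a count of 0 allows. Nlrc5 stood at 62.8 CPM (interval 57.6 to 68.3) in these barcodes, above its level of 22.9 in all annotated stromal cells. B2m stood at 2880 CPM, below 4916 in annotated cells. Tap1 stood at 62.0 CPM against 65.3, Tap2 at 63.1 against 78.4, Tapbp at 68.9 against 103 and Cd1d1 at 8.54 against 11.8. What these barcodes hold was not tested.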

How the results depend on the processing

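No paired analysis was possible because the labels give 1 library for each group. The ratios of mature SP over DP kept their direction for B2m, Tap1, Tap2, Tapbp and Nlrc5 in every alternative run, while Cd1d1, with a main ratio of 1.05, was 0.986 without cells captured together. B2m was 8.38 with at most 3% mitochondrial UMIs, 9.38 as the mean of the cells' CPM, 10.5 on a total without mitochondrial, ribosomal and haemoglobin genes, 11.1 under median-of-ratios scaling, 8.61 by initial cluster and 9.39 without mature cells that hold a Rag1 UMI. Tap1 was 1.95 on that total, 2.05 under that scaling and 1.44 thinned, and Cd1d1 was 1.41 thinned. Tap2 was 0.110 with the mitochondrial limit, 0.100 on that total, 0.105 under that scaling, 0.0565 thinned and 0.0439 without Rag1. Tapbp was 7.39 under that scaling, and Nlrc5 was 12.6 under it and 13.1 with the mitochondrial limit.

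The direction reversed for Tap2 in endothelial cells over fibroblasts (0.993 thinned), B2m and Tap1 in DN over DP (0.937 and 1.11 thinned) and B2m in DP-P over DP (1.05 under median-of-ratios scaling and 1.22 by initial cluster). The cause was not tested. Counts of the 6 genes past 2-fold moved as follows. In DN over DP, 1 was higher under the mitochondrial limit, the reduced total, median-of-ratios scaling and initial clusters, and 0 were lower under the first 3, while 2 were lower without cells captured together and as the mean of the cells' CPM. In DP-P over DP, 1 was higher and 0 lower under the mitochondrial limit, that scaling and initial clusters. In Pre DP-sig over DP, 1 was higher under the mitochondrial limit, and 1 was lower below the 99th percentile, without cells captured together and as the mean of the cells' CPM. In DP-sig over DP, 2 were higher and 1 lower under the mitochondrial limit. In the stroma, 1 was lower in mTEC1 over cTEC thinned, 0 in TMC4 thinned, and 3 were higher in endothelial cells without Endo-2. In myeloid cells 5 were lower without cells captured together, 1 under that scaling and 4 thinned. In cells labelled Thymocyte, 2 were higher under the mitochondrial limit, below the 99th percentile, as the mean of the cells' CPM, on the reduced total and thinned, and 1 or 2 were lower in 4 settings.

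Counts of all genes past 2-fold in mature SP over DP were 753 higher and 1320 lower, and 1130 and 902 under median-of-ratios scaling. With genes of at least 2 CPM they were 1466 and 2146, and with any gene of 1 UMI 7168 and 2925. In mTEC2 over cTEC they were 1305 and 1804, and 2837 and 2490 with at least 2 CPM. Other all-gene counts moved in the same way where the filter was lowered. With 1 library per group, how far these differences vary between animals or preparations was not measured, and levels resting on under 30 UMIs, as for Cd1d1 in most labels, have wide intervals.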
